A study of Mus musculus with 28 samples.

Results

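The secondary spermatocyte gate (R6) was set against the primary spermatocyte gate (R7) of the same mouse in 4 mice, WT 178, WT 648, KO 544 and KO 550. Both gates were sequenced from these 4 of the 13 mice, which gives 8 of the 28 libraries at hand, and no measured value entered the choice. Deposited RPKM values, reads scaled by transcript length and library depth, were summed over the transcripts of each gene. The mice are males labelled C57BL/6, while the methods give a mixed 129SvEvBrd:C57BL/6 colony, and they are wildtype or constitutive knockout for *Csmd1*, a complement regulatory gene, and the methods give siblings of 40 ± 1 days for sorting. In the knockout a reporter and selection cassette takes the place of exon 1 and part of intron 1 in every cell. One testis of a mouse was dissociated with enzymes, stained with Hoechst 33342 and sorted on blue fluorescence, which follows DNA content, and red fluorescence, which follows chromatin state and dye efflux. The other groups used for reference are spermatogonia (R5) and spermatids (R4) of mice 178, 648 and 544, and R5, R6 and R4 of KO 286, which had no R7 library at hand. Values in lists below follow the order of mice 178, 648, 544 and 550.

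Primary spermatocytes pass through the long prophase of meiosis I, in which homologous chromosomes pair, recombine and are held by the synaptonemal complex, while the X and Y chromosomes are silenced. Secondary spermatocytes are the short-lived products of the first division, complete the second division within hours and become round spermatids, which build the acrosome and flagellum and later replace histones by transition proteins and protamines. Many spermatid transcripts are made before their proteins, and the stages lie close in DNA content and chromatin state, so that a gate is defined by dye signal and not by a stage-specific protein.

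The 8 libraries hold an estimated 32628000 to 61658000 mapped reads (median 48201000), read from the whole-read steps of the RPKM values. Mouse 648 stands apart: *Prm1*, a protamine of late spermatids, was at 0.342 RPKM in its primary and 0.691 RPKM in its secondary spermatocytes. The spermatogonia library of KO 544 carried spermatid transcripts, with a summed level of 1758 RPKM over 10 round spermatid markers against 11.4 to 56.6 RPKM in the other 3 spermatogonia libraries. KO 544 and KO 550 share 1 set of transcripts without a value, and WT 178 and WT 648 each have another, so genotype and quantification set cannot be told apart fully. The paired R7 libraries held high levels of *Stag3*, a meiotic cohesin (1158 to 1770 RPKM), and of *Ldhc*, the germ cell lactate dehydrogenase (652 to 3849 RPKM). Neither gene passed between R7 and R6. Summed pachytene and diplotene markers were 1810 to 4872 RPKM in paired R7 and 1626 to 2473 RPKM in paired R6 libraries. Summed early prophase markers were 1904 to 3584 and 1117 to 2449 RPKM, and both sums overlapped. In WT 648 the pachytene sum was 1810 RPKM in R7, 1768 RPKM in R6 and 1670 RPKM in R4. No marker list existed for the R6 gate. The unpaired R7 library of KO 613, given beside some results, differs from the other libraries: 12.5% of its low values fall on whole reads, near the share that chance gives, and 12787 transcripts have no value. Its levels may therefore be on another scale.

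*Csmd1* (chromosome 8, 15892537 to 17535586, minus strand, GRCm38) was at 0.132, 0.069, 0.21 and 0.436 RPKM in primary and at 0.713, 0.093, 2.76 and 2.33 RPKM in secondary spermatocytes. The 2 knockout mice had the highest values in both gates, and the gene sum consists mostly of exons outside the deleted part, so it does not check the genotype labels. The paper reports that knockout testes have lost or reduced expression of most exons and raised expression of the last ones. Exons were not separated here. The mean within-mouse difference, R6 minus R7 on the log2(RPKM + 0.1) scale, was 1.85 ± 0.51 (SE, n = 4 mice; limma adjusted p = 0.021). After quantile normalization it was 1.13 (limma adjusted p = 0.11).

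Of 21340 genes with a mean of at least 0.1 RPKM, 4686 rose from primary to secondary spermatocytes (22.0%) and 2310 fell (10.8%), 32.8% in all, at a limma adjusted p of 0.05, with the mouse as a block. The fold was at least 2 for 4567 of the rises and 1738 of the falls. Rises were mostly of low genes: among the 8663 genes with a mean of at least 5 RPKM, 1378 rose and 1808 fell, and the median difference was -0.26. Over all genes tested the median was 0.20, and it moved to -0.16 after quantile normalization, under which 2952 genes rose and 3646 fell. In both fits 2817 genes rose and 2215 fell, and no gene was called in opposite directions. Rises thus made up 67.0% of the calls on deposited values and 44.7% after quantile normalization.

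Without KO 550 the counts were 2584 and 560, and without KO 544 they were 3157 and 947. Without WT 648 they were 4840 rises and 2750 falls.

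**Figure D1:**
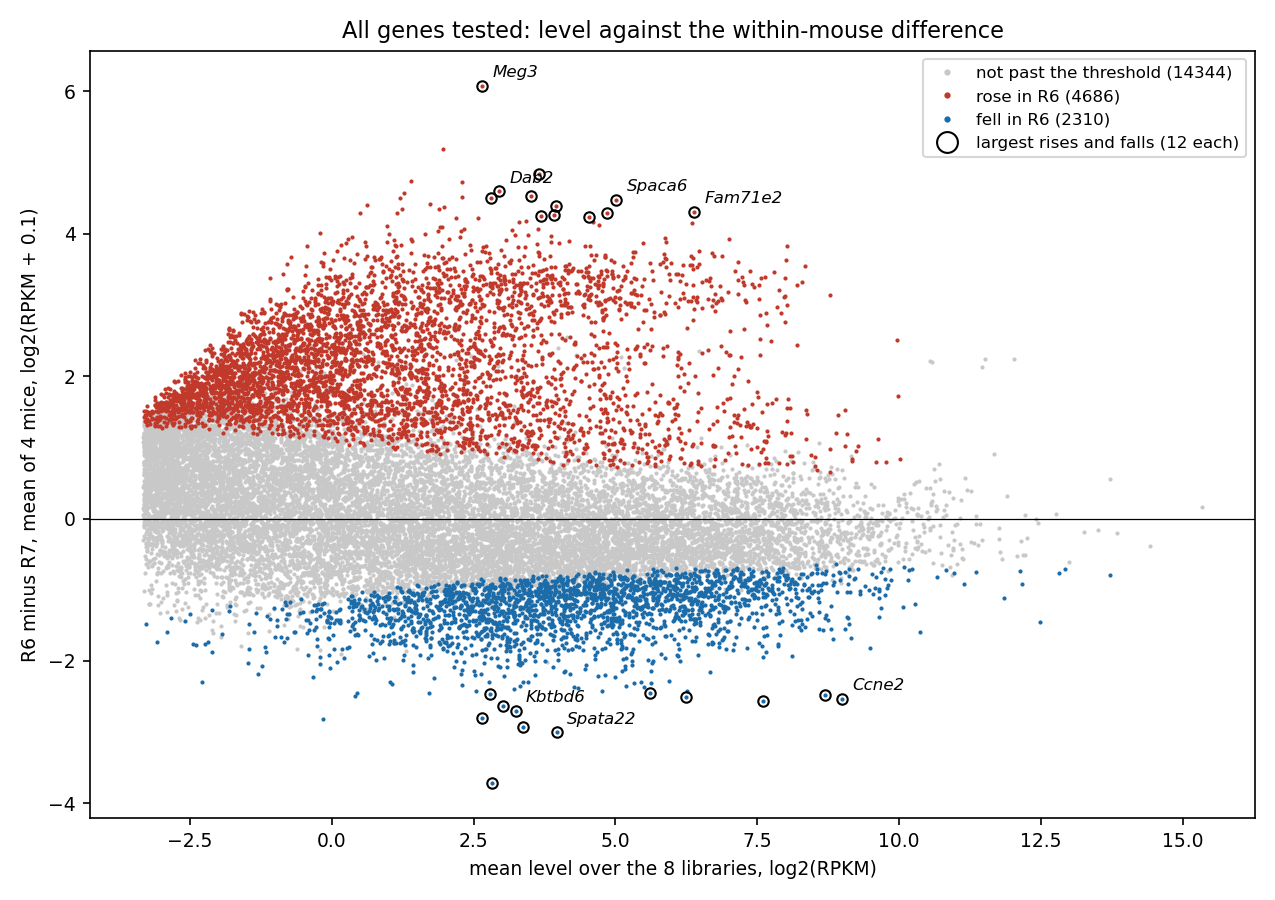
Mean within-mouse difference (R6 minus R7, log2(RPKM + 0.1)) of 21340 genes against their mean RPKM over the 8 libraries (log axis). Points in colour are the 4686 genes that rose and the 2310 that fell, grey points the 14344 others, and circles mark the 12 largest rises and 12 largest falls; rises crowd at low levels and falls at high levels.

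Spermatid genes rose together. All 10 round spermatid markers and all 9 elongating spermatid markers in the table passed the test upward, with median differences of 3.27 and 2.72 against 0.20 over all genes. The median of the round spermatid list was 3.58, 1.79, 4.32 and 3.21 in the 4 mice, and WT 648 was the lowest. Summed over the list, the paired R7 libraries held 43.1 to 114.2 RPKM and the paired R6 libraries 137.7 to 932.7 RPKM, with no overlap. The unpaired R7 library of KO 614 held 200.1 RPKM, and that of KO 613, with its uncertain scale, 155.5 RPKM. Both lie within that R6 range. Among the 8 paired libraries, every R6 library lay above every R7 library in 14.8% of all genes tested. Every R6 library lay below every R7 library in 5.62%. Every one of these 19 calls held when any 1 mouse was left out. Without the mouse as a block 8 round and 3 elongating spermatid markers passed. With all 11 spermatocyte libraries and no block 6 and 2 passed, and with 10 of them, KO 613 left out, 8 and 2. In sorted populations, more cells of a later stage and more RNA per cell cannot be told apart.

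*Acrv1*, an acrosomal vesicle protein, was at 2.35, 2.49, 2.71 and 7.82 RPKM in primary and at 29.6, 8.19, 69.8 and 84.4 RPKM in secondary spermatocytes. The gates did not overlap, and the R6 library of WT 648 lay just above the highest R7 library. Its difference was 3.33 ± 0.42 (SE; limma adjusted p = 0.00045). Spermatids of mice 178, 648 and 544 held 173, 47.9 and 154 RPKM, above R6 in each.

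*Izumo1*, the sperm ligand for fusion with the egg, went from 1.49, 0.309, 1.91 and 3.3 RPKM to 20.9, 1.89, 46.7 and 40.7 RPKM. It was higher in R6 in all 4 mice, but the R6 value of WT 648 lay inside the R7 range. Its difference was 3.53 ± 0.38 (limma adjusted p = 0.00027). *Catsper4*, a subunit of the sperm calcium channel, differed by 3.71 ± 0.45 and *Sun5*, which anchors the sperm head to the tail, by 3.35 ± 0.39 (limma adjusted p = 0.00036 and 0.00032).

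*Smcp*, a protein of the sperm mitochondrial capsule, read 26.6, 35.2, 40.1 and 73.2 RPKM in primary and 296, 184, 599 and 633 RPKM in secondary spermatocytes. All R6 libraries were above all R7 libraries, WT 648 included, and the difference was 3.21 ± 0.28 (limma adjusted p = 0.00026). *Tnp1*, a transition protein, differed by 2.71 ± 0.26, although in WT 648 it went only from 0.816 to 3.84 RPKM. *Prm1* was at 17.8, 0.342, 31.3 and 42.7 RPKM in R7 and at 124, 0.691, 261 and 259 RPKM in R6, with a difference of 2.32 ± 0.37 (limma adjusted p = 0.0015). Levels of WT 648 were far below those of the other mice in both gates.

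The acrosome and fusion list split by level. Of 14 members 9 rose, and these were low in R7: *Spaca3* (3.70 ± 0.35), *Tmem95* (3.51 ± 0.58) and *Spam1* (2.97 ± 0.37), which act in binding or fusion with the egg, were at most 6.99 RPKM there. The other 5 were already high in primary spermatocytes. *Acrbp*, the proacrosin binding protein, was at 959 to 2147 RPKM in R7 and differed by 0.37 ± 0.25 (limma adjusted p = 0.27). *Acr*, the proacrosin gene, was at 83.2 to 159 RPKM and differed by 0.21 ± 0.24 (limma adjusted p = 0.52).

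In the axoneme and flagellum list 8 of 17 measured members rose and none fell. *Spag6*, a protein of the axonemal central pair, was at 3.05, 2.71, 2.08 and 3.71 RPKM in primary and at 23.6, 18.7, 38.9 and 37.9 RPKM in secondary spermatocytes. Its gates lay wide apart in every mouse, with a difference of 3.28 ± 0.32 (limma adjusted p = 0.00026). *Akap4* and *Akap3*, scaffolds of the fibrous sheath, and *Odf1*, of the outer dense fibres, differed by 3.07 ± 0.29, 3.12 ± 0.34 and 2.90 ± 0.27. The dynein heavy chains *Dnah8* and *Dnah17* were at 169 to 347 RPKM in R7 and differed by -0.63 ± 0.26 and -0.13 ± 0.24 (limma adjusted p = 0.085 and 0.70).

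**Figure D2:**
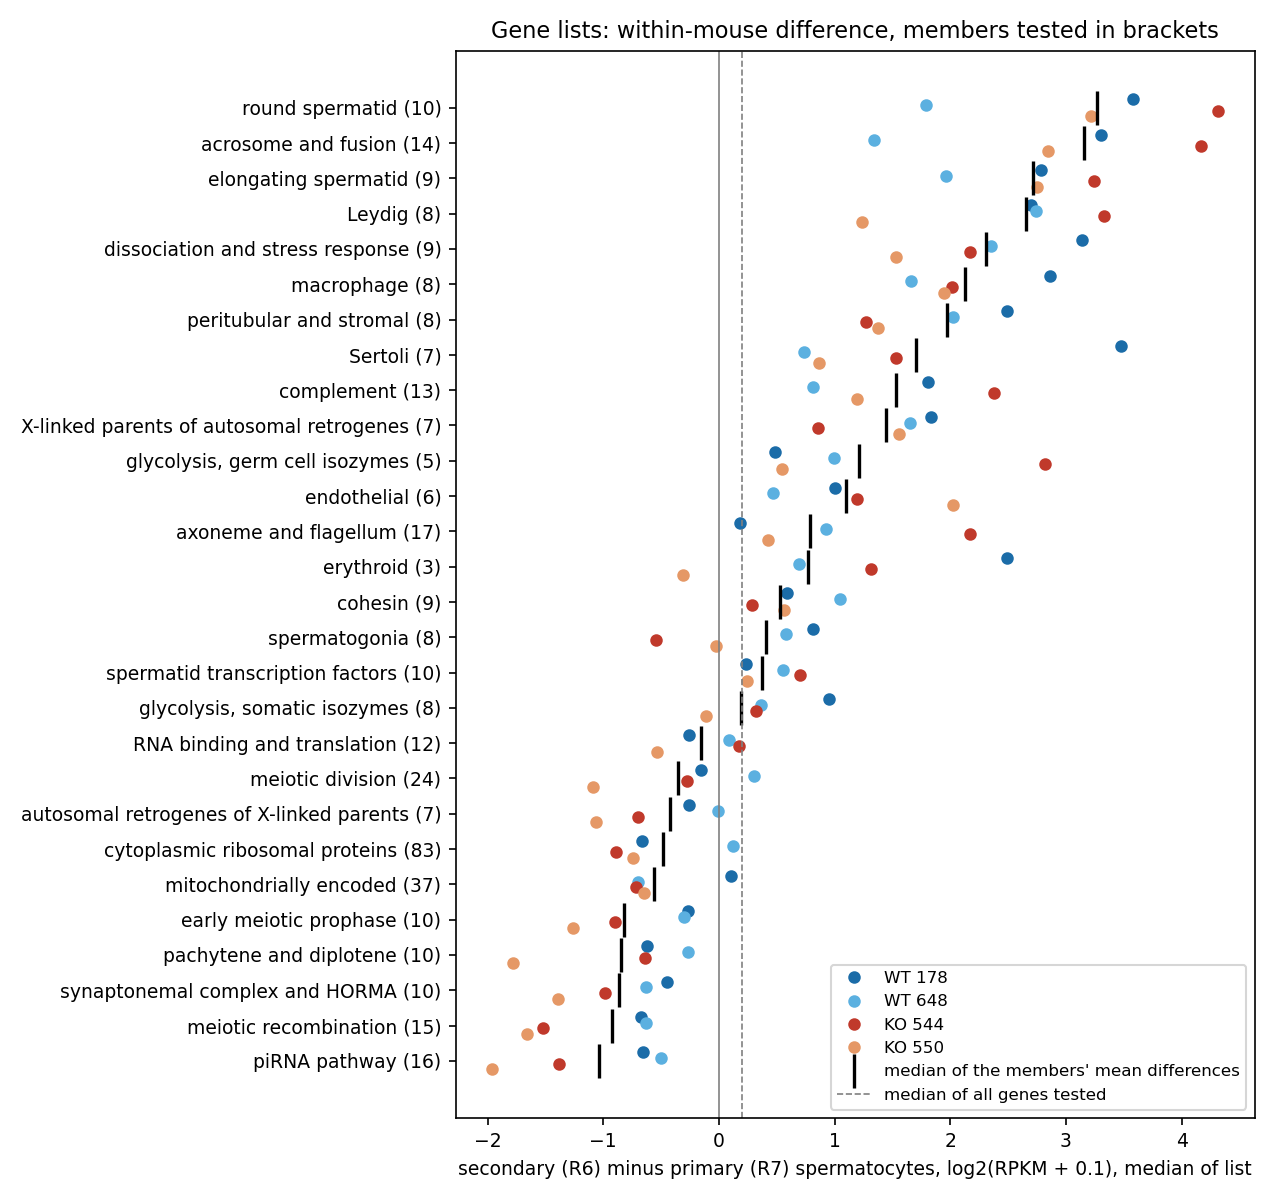
Median difference (R6 minus R7, log2(RPKM + 0.1)) of each of 28 gene lists in each mouse (points, coloured by mouse), with the median of the members' mean differences as a black bar and the median of all genes tested (0.20) as a dashed line. The spermatid, Sertoli, Leydig, macrophage, stromal, endothelial and stress lists lie to the right in all 4 mice, and the piRNA, recombination and prophase lists to the left in all 4.

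Of 10 transcription factors of the spermatid program 4 rose. *Sox5* was at 17.8, 23, 19.6 and 32.9 RPKM in R7 and at 157, 97.2, 279 and 314 RPKM in R6, a difference of 3.07 ± 0.30 without overlap (limma adjusted p = 0.00026). *Fhl5*, an activator that works with CREM, differed by 3.45 ± 0.38, *Rfx3*, a regulator of cilium genes, by 1.62 ± 0.24 and *Taf7l*, an X-linked subunit of TFIID, by 1.12 ± 0.31. *Crem* itself was already at 668 to 1695 RPKM in R7 and differed by 0.52 ± 0.23 (limma adjusted p = 0.11; 0.03 after quantile normalization). *Rfx2* (-0.13 ± 0.22) and *Sox30* (0.15 ± 0.24) did not pass.

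Among 12 genes of RNA binding and translation 2 rose and 3 fell, with 1 rise left without WT 178, KO 544 or KO 550. *Samd4*, the mouse homologue of the translational repressor Smaug, went from 10, 7.98, 14.2 and 25.2 RPKM to 113, 33.4, 306 and 299 RPKM, a difference of 3.38 ± 0.35 (limma adjusted p = 0.00026), and the gates did not overlap. *Dazl*, which activates translation in germ cells, fell by 1.99 on the log2 scale (SE 0.42; limma adjusted p = 0.0065), and *Tsn*, which encodes translin, fell by 1.73 (SE 0.37). *Boll* fell by 0.74 (SE 0.25), a call lost after quantile normalization (limma adjusted p = 0.062). *Ybx2*, an abundant mRNA-storing protein of 2325 to 6700 RPKM in R7, differed by -0.27 ± 0.22.

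The germ cell isozymes of glycolysis also parted. *Gapdhs* (2.97 ± 0.26), *Aldoart1* (3.36 ± 0.33) and *Pgk2* (1.21 ± 0.38) rose, the last with limma adjusted p = 0.035. *Ldhc* differed by -0.80 ± 0.30 (limma adjusted p = 0.065), and *Eno4* by 0.12 ± 0.29.

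Genes of meiotic prophase moved the other way, though in fewer members. Of 10 pachytene and diplotene markers 4 fell and 1, *Pgk2*, rose, and of 10 early prophase markers 4 fell and none rose. Beside this, 10.8% of all genes tested fell, and 1808 of the 8663 with a mean of at least 5 RPKM. The medians of the pachytene and early prophase lists were -0.85 and -0.82. Of the early prophase falls 2 were left without KO 544 and 1 without KO 550. Without the mouse as a block 3 pachytene markers and no early prophase marker fell.

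*Hist1h1t*, the testis linker histone of pachytene cells, was at 53.9, 22.9, 117 and 45.3 RPKM in primary and at 17.9, 2.73, 24.2 and 7.8 RPKM in secondary spermatocytes. It was lower in R6 in each mouse, while the R6 library of KO 544 reached the lowest R7 library, that of WT 648. The difference was -2.35 ± 0.30 (limma adjusted p = 0.00043). *Mybl1*, the A-MYB regulator of pachytene genes, differed by -0.89 ± 0.30 (limma adjusted p = 0.045; 0.054 after quantile normalization). *Ccna1*, the cyclin needed for entry into the first division, differed by 1.08 ± 0.40 (limma adjusted p = 0.06).

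Synaptonemal complex and HORMA genes had 4 of 10 falls and no rise, beside falls in 10.8% of all genes tested. *Tex12*, of the central element, *Hormad1*, which marks unsynapsed axes, *Sycp3*, of the lateral element, and *Sycp1*, of the transverse filament, fell by 2.18, 1.63, 1.40 and 0.99 on the log2 scale. *Syce1*, *Syce2* and *Syce3*, also of the central element, lay between -0.13 and 0.19 and did not pass. Without KO 550 only 2 of the 10 passed, and without the mouse as a block only 1.

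Recombination genes gave 6 falls and 1 rise among 15 members, beside falls in 10.8% of all genes tested. Without the mouse as a block 4 falls and 1 rise were left. *Spata22*, the partner of MEIOB on single-stranded DNA, went from 14.1, 11.7, 56.8 and 25.2 RPKM to 3.63, 0.674, 11.3 and 1.71 RPKM without overlap (-2.996 ± 0.39; limma adjusted p = 0.0005). Its exons are shared with the read-through gene *Gm49340*, so reads of the pair cannot be separated. *Ccnb1ip1*, also called HEI10, *Hfm1*, a helicase of crossover formation, and *Meiob* fell by 2.45, 1.90 and 1.44 on the log2 scale.

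*Tex15*, needed for meiotic recombination and for silencing of transposons, went against the rest of the recombination list. It rose from 1.59, 10.4, 6.55 and 5.42 RPKM to 11.9, 25.4, 16.6 and 20.5 RPKM (1.83 ± 0.33; limma adjusted p = 0.003), and the gates did not overlap.

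The piRNA pathway, which makes small RNAs that silence transposons and is most active in pachytene, had the lowest list median on deposited values, -1.04, with 10 of 16 members falling and none rising. *Tdrd5*, needed for processing of pachytene piRNA precursors, was at 115, 153, 230 and 154 RPKM in primary and at 54.8, 31.8, 51.7 and 17.8 RPKM in secondary spermatocytes. The gates did not overlap (-2.15 ± 0.32; limma adjusted p = 0.0011). *Piwil1*, the PIWI protein of pachytene piRNAs, went from 138, 121, 437 and 292 RPKM to 84.6, 28.2, 122 and 47.8 RPKM (-1.81 ± 0.31; limma adjusted p = 0.0023), and 1 R6 library, KO 544, reached the lowest R7 library. *Piwil2* and *Tdrd1* fell by 2.12 and 1.93. *Gtsf1*, at 706 to 2159 RPKM in R7, differed by -0.03 ± 0.26 and *Mael* by -0.41 ± 0.24. Without KO 550 6 of the 16 passed, without KO 544 7 and without the mouse as a block 4. Over all genes tested 10.8% fell.

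Cohesin subunits, the rings that hold sister chromatids together, divided by subunit. *Rec8*, the meiotic kleisin whose centromeric pool is kept until the second division, was at 2.39, 1.64, 4.41 and 4.86 RPKM in R7 and at 28.7, 10.9, 54.8 and 51 RPKM in R6. The gates did not overlap (3.29 ± 0.29; limma adjusted p = 0.00026). *Stag2*, an X-linked subunit of somatic cohesin, went from 0.424, 5.43, 2.09 and 3.03 RPKM to 12.8, 25.3, 18.1 and 18 RPKM, again without overlap (3.10 ± 0.40; limma adjusted p = 0.00051). *Smc3* and the X-linked *Smc1a* differed by 1.98 ± 0.30 and 1.30 ± 0.33 and passed upward.

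*Stag1* fell by 1.08 (SE 0.28), a call lost without KO 544 or without KO 550. *Stag3* and *Smc1b*, the meiosis-specific partners with the highest levels of the list, differed by -0.50 ± 0.23 and -0.32 ± 0.23 (limma adjusted p = 0.11 and 0.31). The summed cohesin level was therefore lower in R6 (1100 to 1321 RPKM) than in R7 (1401 to 2001 RPKM) while 4 of 9 members rose. The unpaired R7 library of KO 614 held 921 RPKM, below those R6 values, and that of KO 613, with its uncertain scale, 369 RPKM.

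Genes of the meiotic divisions did not move as 1 group. Of 24 members 5 rose and 4 fell, and the median was -0.35. *Cdc25c*, a phosphatase that activates the cyclin B kinase, was at 0.771, 2.16, 0.931 and 1.72 RPKM in R7 and at 3.13, 6.46, 5.19 and 4.67 RPKM in R6 (1.79 ± 0.34; limma adjusted p = 0.0035), without overlap. *Incenp*, of the chromosomal passenger complex, *Plk1*, the polo kinase, *Cenpe*, a kinetochore motor, and *Ccnb1*, cyclin B1, differed by 1.06 ± 0.26, 1.06 ± 0.33, 0.93 ± 0.26 and 0.92 ± 0.31 (limma adjusted p = 0.012, 0.032, 0.022 and 0.045).

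*Mad2l1*, of the spindle checkpoint, fell from 31.9, 13.9, 53.9 and 33.4 RPKM to 9, 1.67, 12.1 and 5.48 RPKM (-2.38 ± 0.30; limma adjusted p = 0.00039), and its gates did not overlap. *Bub1b*, *Fbxo43* and *Cdca8* fell by 0.94, 0.90 and 0.88 on the log2 scale. *Cdk1*, *Aurka* and *Pttg1*, the securin gene, differed by -0.79 ± 0.35, 0.23 ± 0.27 and -0.30 ± 0.25 and did not pass. The calls of this list moved with the mice used: 1 rise and 1 fall were left without KO 544, 3 and 1 without WT 178, 4 and 1 without KO 550, and 3 rises and 7 falls without WT 648.

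**Figure D3:**
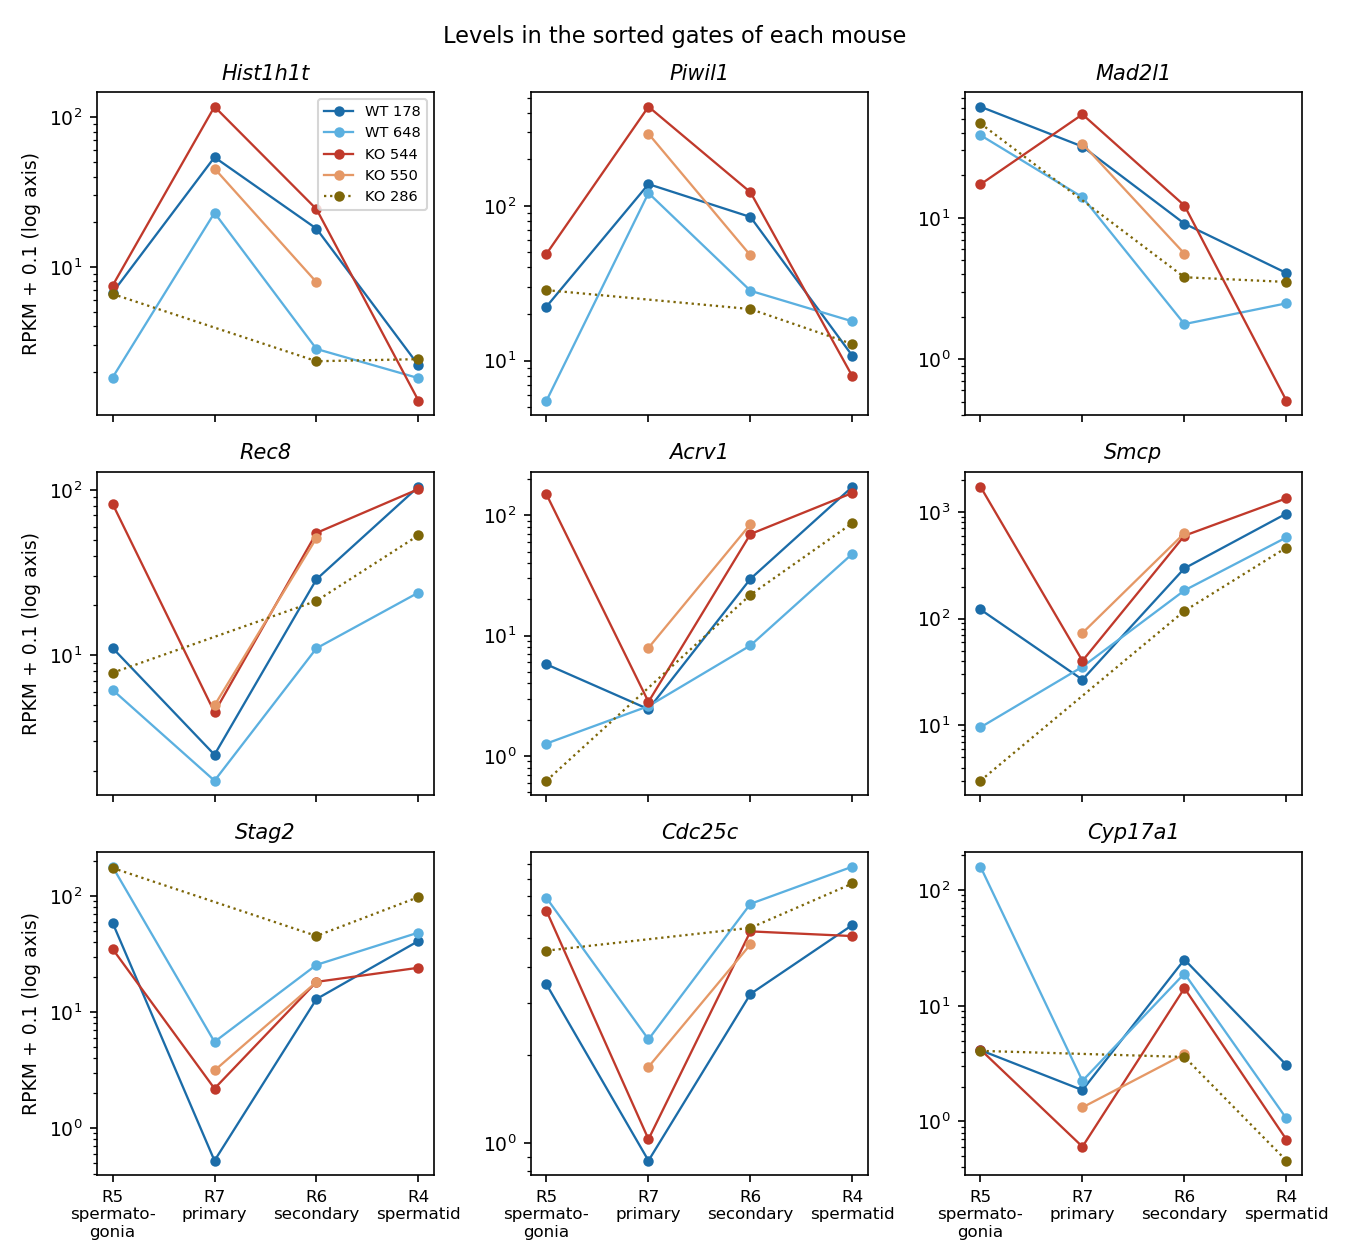
RPKM + 0.1 (log axis) of 9 genes in the spermatogonia (R5), primary (R7), secondary (R6) and spermatid (R4) gates, 1 line per mouse, with KO 286 dotted because it has no R7 library. Hist1h1t, Piwil1 and Mad2l1 step down from R7 to R6 and again to R4 in most mice, Rec8, Acrv1 and Smcp step up, and Cyp17a1 is higher in R6 than in either neighbour.

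Promoter sequences from RefSeq (GRCm38.p6, 250 bases before the start and 50 after) were matched by symbol to 13627 of 21325 tested symbols, under the 80% needed to compare all rises with all falls. Within lists they were searched on both strands for the full cyclic AMP response element TGACGTCA, the site of CREM, and for the MYB words, which are CAACGG with the related word CAACTG, then TAACGG with the related word TAACTG. The full element stood in 2.03% of all 27018 genes with a promoter in the table, in 3.12% of the tested ones and in 1 of 10 round spermatid markers, *Izumo1*. A MYB word stood in 31.1% of all genes, in 30.4% of the tested ones, in 6 of 13 piRNA genes and in 3 of 10 round spermatid markers. These matches are descriptions of letters, not of binding. The 250 bases before the start are shown for 1 riser with the CREM element, *Izumo1* (chr7:45621561-45621810, plus strand, 96 bases before the start), and 1 with a MYB word, *Spag6* (chr2:18698772-18699021, plus strand, 77 bases before). Beside them stand a pair of fallers with MYB words, *Piwil1* (chr5:128735996-128736245, plus strand, 139 and 73 bases before, both on the other strand) and *Tdrd5* (chr1:156303349-156303598, minus strand, 10 bases before). Capitals mark the motif.
Izumo1: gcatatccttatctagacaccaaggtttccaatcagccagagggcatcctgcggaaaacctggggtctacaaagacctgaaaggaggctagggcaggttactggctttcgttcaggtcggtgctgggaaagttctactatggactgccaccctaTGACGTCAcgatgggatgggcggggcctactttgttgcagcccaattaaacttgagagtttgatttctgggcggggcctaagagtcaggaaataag
Spag6: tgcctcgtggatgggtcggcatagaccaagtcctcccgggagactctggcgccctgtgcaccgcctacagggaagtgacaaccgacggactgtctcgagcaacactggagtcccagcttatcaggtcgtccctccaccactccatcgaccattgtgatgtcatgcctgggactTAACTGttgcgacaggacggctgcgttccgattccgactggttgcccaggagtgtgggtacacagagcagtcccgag
Piwil1: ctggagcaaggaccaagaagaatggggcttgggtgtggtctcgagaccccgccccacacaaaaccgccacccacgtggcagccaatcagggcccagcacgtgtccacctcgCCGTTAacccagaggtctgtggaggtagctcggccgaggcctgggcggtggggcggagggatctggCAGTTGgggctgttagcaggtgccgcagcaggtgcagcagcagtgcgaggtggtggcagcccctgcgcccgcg
Tdrd5: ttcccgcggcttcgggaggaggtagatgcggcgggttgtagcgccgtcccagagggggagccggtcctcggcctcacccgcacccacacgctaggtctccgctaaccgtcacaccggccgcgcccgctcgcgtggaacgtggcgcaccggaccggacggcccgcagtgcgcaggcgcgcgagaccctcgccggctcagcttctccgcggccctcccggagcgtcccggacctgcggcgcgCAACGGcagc

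Sex-linked genes rose as a class. Of 780 X-linked genes tested 469 rose (60.1%) and 2 fell (0.256%), against 20.4% and 11.3% of 20470 autosomal genes. The median X-linked difference was 1.64 against 0.16 for autosomes, and it was 2.21, 1.30, 1.69 and 1.65 in the 4 mice. Quantile normalization left it at 1.08. Of 53 Y-linked genes 35 rose and none fell, with a median of 1.62.

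X-linked genes gave 0.0413, 0.110, 0.107 and 0.0850% of the summed RPKM of protein-coding genes in primary and 0.358, 0.336, 0.373 and 0.416% in secondary spermatocytes. The R6 share was higher in each mouse and the gates did not overlap. Spermatids of mice 178, 648 and 544 held 0.802, 0.426 and 0.688%, and their spermatogonia 1.61, 2.34 and 0.819%. The 2 knockout R7 libraries without an R6 pair, mice 614 and 613, held 0.409 and 0.828%. The value of KO 614 is within the R6 range, and that of KO 613 carries the doubt about its scale given above. Among the 117 X-linked genes with a mean of at least 5 RPKM, 99 rose and 1 fell, and their median was 2.20. The 2 X-linked genes that fell were *Ndufa1*, a subunit of respiratory complex I, and the pseudogene *Llph-ps2*.

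Several X-linked housekeeping genes have autosomal retrocopies that act while the X is silent. Of 7 X-linked parents 5 rose, with summed levels of 13.6 to 31.4 RPKM in paired R7 and 52.4 to 100.03 RPKM in paired R6 libraries, without overlap. The unpaired R7 library of KO 614 held 101.26 RPKM, above each paired R6 library. That of KO 613, with its uncertain scale, held 79.0 RPKM. *Cstf2*, a polyadenylation factor, was at 1.37, 2.56, 13.7 and 9.52 RPKM in R7 and at 25.4, 16.4, 72.4 and 73.2 RPKM in R6 (3.02 ± 0.33; limma adjusted p = 0.00027). *Rbmx*, *Pdha1*, *Pgk1* and *Rpl10* differed by 1.90 ± 0.37, 1.55 ± 0.51, 1.44 ± 0.37 and 1.14 ± 0.35. *Pgk1* and *Pdha1* lost the call after quantile normalization. Of the 5 rises 2 were left without WT 178 and 3 without WT 648 or without KO 550.

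Of the 7 autosomal retrocopies 1 rose, *Pgk2*, and 1 fell, *Pdha2* (-1.34 ± 0.33; limma adjusted p = 0.012). *Cetn1*, *Utp14b* and *Rpl10l* differed by -0.00 ± 0.26, 0.29 ± 0.27 and -0.42 ± 0.31.

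**Figure D4:**
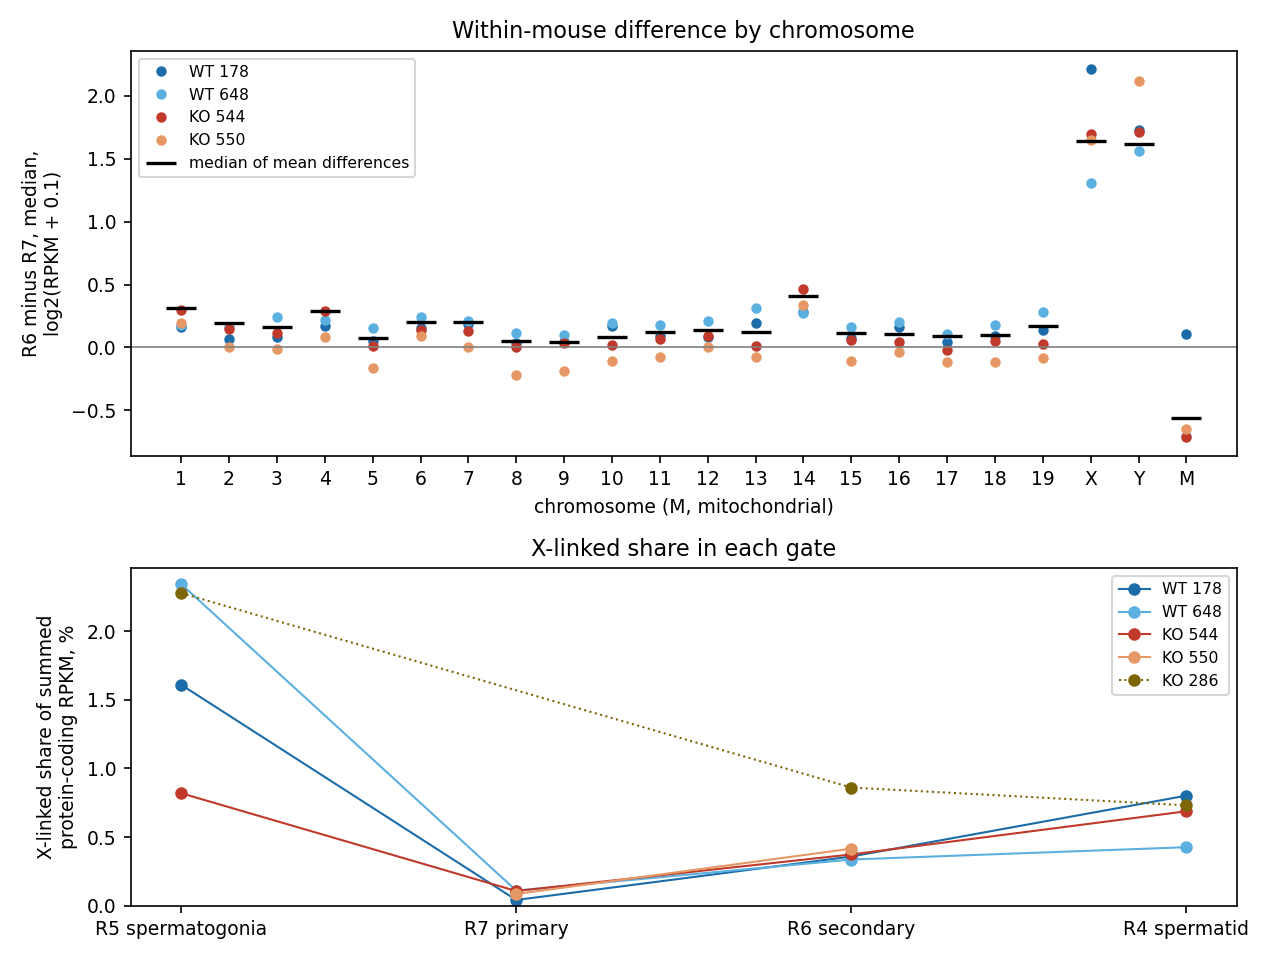
Upper panel, median difference (R6 minus R7, log2(RPKM + 0.1)) of the genes on each chromosome, 1 point per mouse and a bar for the median of the mean differences; X and Y stand at 1.64 and 1.62 and every autosome between 0.05 and 0.41. Lower panel, X-linked share of summed protein-coding RPKM in each gate, 1 line per mouse, lowest in R7 in the 3 mice with all gates.

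Genes of several somatic testis cell types also rose. Leydig cell markers rose in 6 of 8 members (median 2.65), macrophage markers in 8 of 8 (2.13), peritubular and stromal markers in 6 of 8 (1.97) and Sertoli cell markers in 5 of 7 (1.70), against 22.0% of all genes. After quantile normalization 5, 5, 3 and 4 members of these lists rose, and without WT 178 the macrophage rises were 5 and the Sertoli rises 3. Endothelial markers rose in 2 of 6 members, 1 after quantile normalization, and none of the 3 erythroid markers tested passed. No spermatogonial marker passed in either direction (0 of 8).

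Summed Leydig markers were 3.47 to 8.86 RPKM in R7 and 19.4 to 76.4 RPKM in R6, and summed macrophage markers 1.84 to 3.19 and 9.57 to 18.7 RPKM, both without overlap. Stromal sums were 3.24 to 14.2 against 12.2 to 122 RPKM and Sertoli sums 35.3 to 163 against 104 to 494 RPKM, which overlapped. *Rhox5*, a defining Sertoli cell gene, was at 0 in all 8 libraries. In R6 of WT 178 and WT 648 the Sertoli sums, 494 and 276 RPKM, exceeded the round spermatid sums, 384 and 138 RPKM. Most of each Sertoli sum came from *Clu*, given below, and the other members together lay below the round spermatid sum. The Leydig, macrophage, stromal and Sertoli sums were higher in R6 in each of the 4 mice, as were the spermatid lists. Their part in those rises was not tested. The unpaired R7 library of KO 614 held 6.56 RPKM of Leydig markers, and that of KO 613, with its uncertain scale, 90.2 RPKM.

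*Cyp17a1*, the androgen-forming hydroxylase of Leydig cells, was at 1.77, 2.15, 0.505 and 1.22 RPKM in primary and at 25, 18.9, 14.1 and 3.73 RPKM in secondary spermatocytes (3.23 ± 0.46; limma adjusted p = 0.00079). The gates did not overlap, and spermatids of mice 178, 648 and 544 held 2.97, 0.961 and 0.597 RPKM. *Clu*, an abundant Sertoli cell product, went from 28.5, 135, 38.1 and 30.8 RPKM to 403, 226, 202 and 83.9 RPKM (2.10 ± 0.42; limma adjusted p = 0.0051), with overlap through the R7 library of WT 648. *Star*, the steroidogenic transporter, differed by 0.41 ± 0.44 and did not pass.

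Immediate early and stress genes, which respond within minutes to tissue dissociation among other stimuli, rose in 8 of 9 members tested (median 2.31). Over all genes tested 22.0% rose. The rises were 6 after quantile normalization, 5 without the mouse as a block and 6 without WT 178, KO 544 or KO 550. With all 11 spermatocyte libraries and no block 0 passed, and with 10 of them, KO 613 left out, 6. *Fos* went from 0.844, 7.21, 3.17 and 0.976 RPKM to 24.4, 68.1, 18 and 7.83 RPKM (3.32 ± 0.38; limma adjusted p = 0.0003) and did not overlap. *Egr1* and *Dusp1* differed by 2.31 ± 0.34 and 1.73 ± 0.38, and *Jun* by 0.86 ± 0.36 (limma adjusted p = 0.09). The summed level was 11.2 to 56.6 RPKM in R7 and 30.7 to 369 RPKM in R6, and it was highest in WT 648 in both gates. In the unpaired R7 library of KO 614 it was 30.3 RPKM, and in that of KO 613, with its uncertain scale, 197.5 RPKM.

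**Figure D5:**
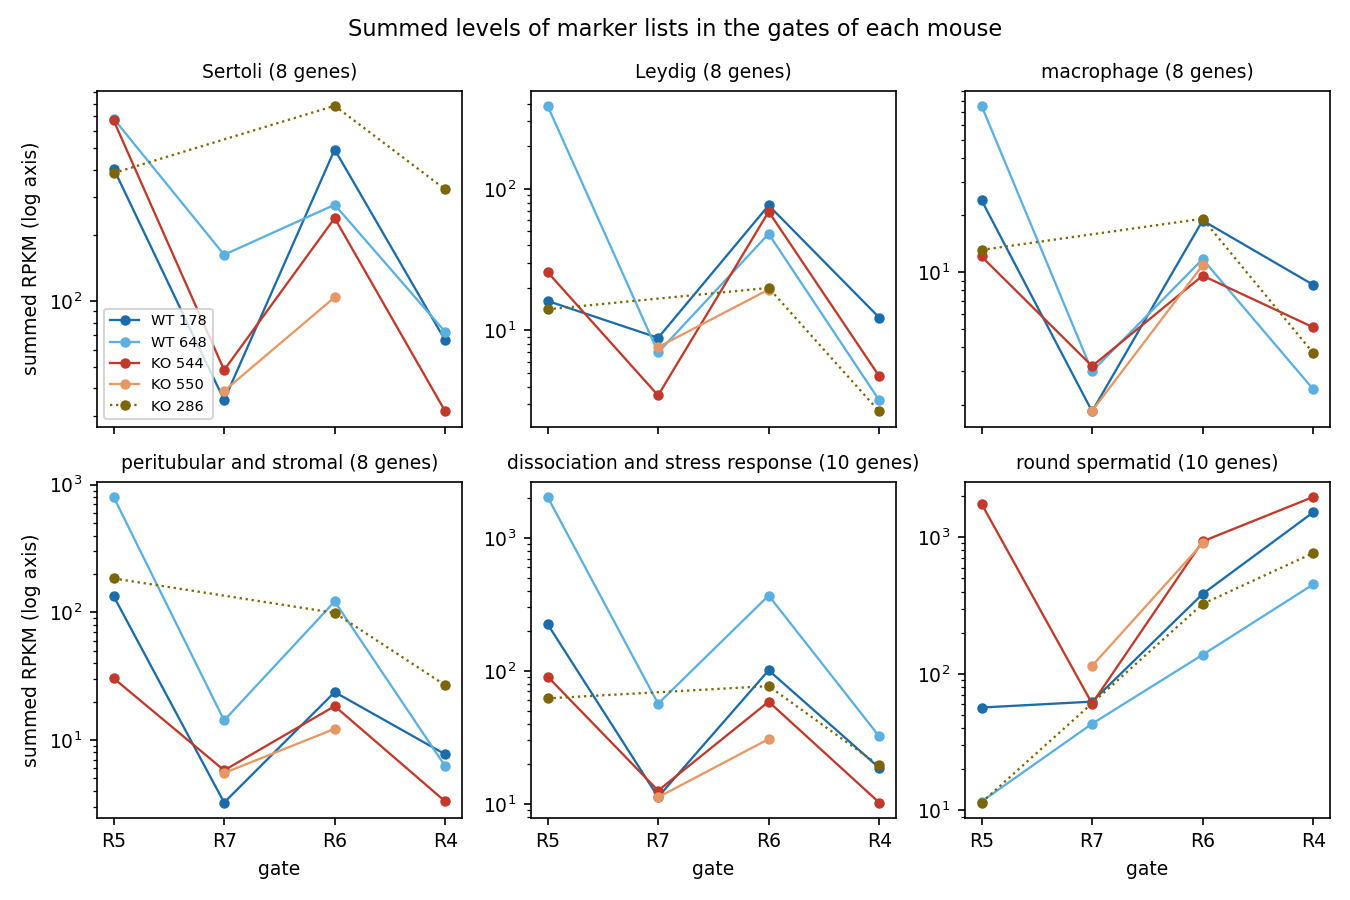
Summed RPKM (log axis) of the Sertoli, Leydig, macrophage, peritubular and stromal, stress, and round spermatid lists in each gate, 1 line per mouse. In mice 178, 648, 544 and 550 each somatic and stress sum is higher in R6 than in R7, and in mice 178, 648 and 544 it falls again in R4, while the round spermatid sum goes on rising.

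Complement genes, the system that *Csmd1* regulates, had 10 rises among 13 members, *Csmd1* included (median 1.53), against 22.0% of all genes. There were 6 rises after quantile normalization, 5 without WT 178 and 6 without KO 544 or without KO 550. Levels were low, with sums over the list of 20.4 to 34.8 RPKM in R7. With a filter at a mean of 1 RPKM 5 rises were left, and without the mouse as a block 6. The C1q chains *C1qa*, *C1qb* and *C1qc*, made by macrophages and also in that marker list in part, differed by 1.86 ± 0.50, 3.15 ± 0.54 and 2.71 ± 0.47 and were at most 2.3 RPKM. The membrane regulator *Cd59a* was at 0.545, 0.298, 0.631 and 0.958 RPKM in R7 and at 7.3, 1.87, 8.1 and 9.29 RPKM in R6 without overlap (3.12 ± 0.36; limma adjusted p = 0.00031). *Cd55* and *Cd46*, regulators of the *C3* convertase, differed by 1.39 ± 0.31 and 2.79 ± 0.66. *C3* itself was at 1.6, 1.46, 1.47 and 1.64 RPKM in R7 and at 3.43, 1.37, 9.68 and 2.25 RPKM in R6 and did not pass (1.01 ± 0.45; limma adjusted p = 0.11).

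Where the R6 gate lies between its neighbours was read in mice 178, 648 and 544. Genes were taken that differed by at least 1 on the log2 scale between R7 and R4 and had a mean of at least 1 RPKM. Of 8292, 4202 and 9752 such genes, 85.8, 82.0 and 90.2% had an R6 level between R7 and R4. For genes higher in R4 the median R6 level lay at 0.578, 0.637 and 0.785 of the way from R7 to R4. For genes lower in R4 it lay at 0.28, 0.503 and 0.432 of the way. In WT 648 the order of these values turned after quantile normalization (0.554 against 0.586). On a log scale a blend of R7 and R4 RNA also gives the higher position to genes higher in R4, so no order of gain and loss is read from them.

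All 10 round spermatid markers lay between R7 and R4 in each of the 3 mice. Their summed level in R6 was 25.3, 30.5 and 47.3% of that in R4, and that of the elongating spermatid markers 14.4, 35.7 and 30.2%. Members of other lists lay between R7 and R4 less regularly. In mice 178, 648 and 544 these were 9, 7 and 9 of 9 elongating spermatid and 9, 6 and 6 of 10 pachytene markers. Of 24 meiotic division genes they were 16, 9 and 15, and of 16 piRNA genes 10, 13 and 14. Of 7 X-linked parents of retrocopies they were 4, 4 and 3.

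In 341 of 21860 genes R6 was above both R7 and R4 by at least 1 on the log2 scale in all 3 mice. The values that chose these genes are not tested here. KO 550 and KO 286 did not enter the margins, but their R6 libraries entered the filter at a mean of 0.1 RPKM. A gene could thus pass through the R6 values compared here, which are a description and not an independent check. Of the 341, 322 were higher in R6 than in R7 of KO 550 (94.4%, against 50.9% of all genes). In KO 286, 329 were higher in R6 than in R4 (96.5%, against 58.3%). The list held 6 of 8 Leydig, 5 of 10 stress, 4 of 8 stromal, 3 of 8 macrophage and 1 of 8 Sertoli markers, and no member of the spermatid, prophase, meiotic division, piRNA or cohesin lists. Spermatogonia were above R6 for 216, 318 and 203 of these genes in mice 178, 648 and 544, and R6 was not below R5 in any of the 3 mice for only 14, the highest at 4.20 RPKM.

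Among genes of at least 5 RPKM in R6 of all 3 mice, the 10 with the widest margins over both neighbours were *Meg3*, *Cyp17a1*, *Pmp22*, *Dab2*, *Fosb*, *Fxyd1*, *Bgn*, *Serping1*, *Fos* and *Lrp1*, genes known from stroma, Leydig cells, endocytosis or the immediate early response. *Lrp1*, an endocytic receptor, was at 1.8, 1.73, 1.24 and 1.34 RPKM in R7 and at 19.2, 15.4, 12 and 8.09 RPKM in R6, and spermatids of mice 178, 648 and 544 held 3.4, 1.29 and 0.617 RPKM. Its spermatogonia libraries held 20.6, 77.2 and 16.8 RPKM, above R6 in each.

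Among genes of at least 5 RPKM, no gene had R6 as its highest gate by 1 log2 unit in all 3 mice, while 361 had R5, 27 had R7 and 17 had R4. The gates compared include R5 of KO 544, which carried spermatid transcripts. Its round spermatid sum, 1758 RPKM, was near that of R4 of KO 544, 1972 RPKM. Counts of genes highest in R4 or R6 are limited by that library. By any margin 106 genes peaked in R6, against 1177 in R7. Genes of this kind, named here after their values were seen, include the kinetochore gene *Spc25*, at 60.4, 33.3 and 28.3 RPKM in R6 and 44.2, 13.0 and 13.6 RPKM in R7 of mice 178, 648 and 544. *Espl1*, the separase gene that opens cohesin rings, was at 21.1, 15.5 and 13.4 RPKM in R6 and 15.0, 9.97 and 11.5 RPKM in R7. *Espl1* belongs to the meiotic division list and did not pass between R7 and R6 in the 4 mice (0.25). *Gm20479*, *Sptbn4*, *Prr15l* and *Shkbp1* had wider margins than *Spc25*, so these picks do not stand for the 106 genes. Mice KO 550 and KO 286 were not used for this choice. In KO 550 *Spc25* was higher in R6 than in R7 (25.9 against 18.8 RPKM) and *Espl1* lower (12.1 against 15.4 RPKM). In KO 286, without an R7 library, *Spc25* was at 33.1 RPKM in R6, below R5 (47.5 RPKM) and above R4 (26.0 RPKM). *Espl1* was there at 14.5 RPKM in R6, below R4 (18.5 RPKM) and above R5 (9.16 RPKM).

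The largest rise of all genes of at least 5 RPKM was that of *Meg3*, an imprinted long non-coding RNA on chromosome 12 (109541001 to 109571726, plus strand). It was at 0.002, 0.658, 0 and 0 RPKM in R7 and at 8.85, 6.59, 21.8 and 12.2 RPKM in R6 (6.08 ± 0.65; limma adjusted p = 0.00026), a size that depends on the pseudocount because R7 was near 0. Spermatogonia of mice 178, 648 and 544 held 6.83, 27.3 and 2.35 RPKM and their spermatids 0.026, 0.619 and 0.359 RPKM. *Dab2*, an endocytic adaptor, rose from 0.13, 4.14, 0.528 and 0 RPKM to 12.9, 29.5, 8.21 and 6.49 RPKM (4.60 ± 0.53; limma adjusted p = 0.00031), and it too was at most 1.42 RPKM in those spermatids.

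Most of the other large rises went on into spermatids. The neighbours *Fam71e2* (chromosome 7, 4753226 to 4771302, minus strand) and *Tmem190* (4782937 to 4784341, plus strand) differed by 4.31 ± 0.47 and 4.39 ± 0.46. *Fam71e2* went from 4.31, 2.98, 5.63 and 7.12 RPKM to 66.3, 16.3, 258 and 312 RPKM without overlap, and stood at 266, 76.8 and 452 RPKM in spermatids of mice 178, 648 and 544. *Spaca6*, a sperm protein of egg fusion whose exons overlap *Mir125a*, went from 1.61, 2.58, 0.543 and 2.36 RPKM to 40.9, 4.1, 86.4 and 120 RPKM (4.48 ± 0.79; limma adjusted p = 0.0026), with the least change in WT 648. The others were *E330034G19Rik* (4.84), *Gm12206* (4.53), *1700092C10Rik* (4.50), *Etfb* (4.29), *Rgsl1* (4.27), *Arrb1* (4.26) and *4931429L15Rik* (4.23).

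Among the largest falls were the adjoining testis histone genes *Hist1h2aa* (chromosome 13, 23934462 to 23934851, plus strand) and *Hist1h2ba* (23933773 to 23934156, minus strand). *Hist1h2ba* was at 380, 93.9, 1692 and 432 RPKM in R7 and at 181, 4.08, 441 and 82 RPKM in R6 (-2.47 ± 0.45; limma adjusted p = 0.003), lower in each mouse with overlapping gates, and *Hist1h2aa* differed by -2.56 ± 0.30. *Ccne2*, cyclin E2, went from 487, 502, 1568 and 832 RPKM to 187, 49, 367 and 85 RPKM without overlap (-2.53 ± 0.34; limma adjusted p = 0.00057), mostly on a 432 nt transcript that overlaps *Ints8* on the other strand.

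*Abraxas1*, of the BRCA1-A repair complex, fell by 2.45, *Fbxo3* and *Fbxo15*, F-box subunits of ubiquitin ligases, by 2.51 and 2.46, and *Pex7*, a peroxisomal import receptor, by 2.93. *Kbtbd6*, *Kcnk10*, *Gm49340* and *Gm8926* fell by 2.70, 2.63, 2.80 and 3.71 on the log2 scale.

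Whether the step from R7 to R6 differed between genotypes was asked with 2 knockout against 2 wildtype mice. No gene of 21340 passed at a limma adjusted p of 0.05 (0.0%), with 3401 at an unadjusted p under 0.05 and a smallest adjusted p of 0.249. The 5 genes with the smallest p and a mean of at least 5 RPKM, *Rbm38*, *Jak1*, *Atp6ap1*, *Asah1* and *Cers2*, were each higher in R6 in both wildtype and lower in R6 in both knockout mice. *Rbm38*, an RNA binding protein, differed by 0.49, 0.61, -2.61 and -2.49, a KO minus WT value of -3.10 ± 0.37 (limma adjusted p = 0.249). Its R7 levels were 13.4 and 29 RPKM in wildtype and 148 and 68.6 RPKM in knockout mice, while R6 levels overlapped (18.8 and 44.3 against 24.1 and 12.2 RPKM).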

How the data were processed

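The authors mapped 2 × 101 bp paired-end reads of polyadenylated RNA to Ensembl R72 with TopHat2 and deposited RPKM per transcript, 94480 in all. In the 8 paired libraries the deposited RPKM precede the PEER adjustment and quantile normalization that the methods name: 93.3 to 94.6% of low values fall on whole reads within 0.06, where chance gives 12.0%. In the R7 library of KO 613 12.5% do, so its processing is uncertain and its depth unknown. Those steps gave the depth, and no count model was fitted. Reads overlapping several transcripts were counted in each (1.39 to 1.89 reads counted per mapped read), and strandedness is not given in the sources used here, so overlapping genes are uncertain.

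Transcripts were summed per gene with GENCODE M21 (90339 matched, 95.6%), with 0 for a missing transcript. limma 3.58.1 (R 4.3.3) was fitted on log2(RPKM + 0.1) with mouse as a fixed block, a mean trend and Benjamini-Hochberg adjustment over genes with a mean of at least 0.1 RPKM. Summaries used Python 3.11.15, numpy 2.4.6, pandas 2.3.3 and matplotlib 3.10.9, and the fit was tested on simulated data. The same titles give the same animal. Deviations of R7 and R6 from their gate means correlated at 0.276, 0.611, 0.365 and 0.248 within mice 178, 648, 544 and 550.

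The genes named are members of the lists, the 12 largest rises and 12 largest falls of at least 5 RPKM with 1 sign in 4 mice, the 10 widest R6 margins with at least 5 RPKM in R6 of 3 mice and the 5 smallest genotype p-values of at least 5 RPKM. The members and lists were chosen with earlier results of these data known. Values of 2 list members are not reported here. PEER and PoissonSeq were not run. Alternatives were 2 pseudocounts, 2 filters, quantile normalization, complete transcripts, no block, all 11 spermatocyte libraries, these without KO 613 (chosen after seeing the data) and each mouse left out. Mice are replicates, with 1 library per mouse and gate.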

Additional observations from a re-analysis of the deposited data

Results flagged for a closer look

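In 5 of 192 named genes and 28 lists checked, the difference of 1 mouse lay far from the other 3 by Dixon's test at 95%, where chance gives about 1 in 20. The difference of *1700092C10Rik* was 7.59 in KO 544, that of *Abraxas1* -3.51 in KO 550 and that of *Brdt* -0.77 in KO 550. The difference of *Rpl10* was -0.13 in KO 544, against a mean of 1.14. The median of the 37 mitochondrially encoded genes was 0.11 in WT 178, against -0.56 for the mean differences.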

How the results depend on the processing

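Of the counts over all genes, rises were 2803 with a filter at a mean of 1 RPKM, and rises and falls were 2952 and 3646 after quantile normalization. Without the replicate block (stage only, same 8 libraries) 2583 rose and 433 fell, with all 11 spermatocyte libraries and no block 1879 rose and 246 fell, and with 10 of them, KO 613 left out after seeing the data, 3273 rose and 709 fell. Leaving out 1 mouse gave 2584 to 4840 rises and 560 to 2750 falls, lowest without KO 550, and an X minus autosome median of 1.378 to 1.701. No gene passed the genotype test, which was run in each fit except those with 10 and 11 libraries. Other pseudocounts, no filter, complete transcripts and the highest transcript per gene, the last chosen after seeing the data, kept the counts within 1.5 times. The median of X minus that of autosomes was 1.48, 0.571 with a pseudocount of 1 RPKM, 2.23 with 0.01 RPKM and 2.33 with a filter at 1 RPKM. The mean position of R6 for genes higher in R4 was 0.666, and 0.558 after quantile normalization. Among 270 values of named genes none turned its direction, 63 lost the call without the block, 85 with all 11 libraries, 51 with 10, 18 with quantile normalization and 9 to 34 without 1 mouse. Low genes depend on the pseudocount, and 4 pairs limit the precision.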

Other observations

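Shares of rises and falls varied between transcript classes. Of 845 lincRNA genes 28.4% rose and 5.44% fell (median difference 0.60), and of 177 unprocessed pseudogenes 32.2% rose and 1.13% fell (0.79), against 22.6% and 13.2% of 16140 protein-coding genes (0.12). Fewer rose among processed pseudogenes (16.8% of 1108), snoRNA (9.85% of 335) and miRNA genes (6.74% of 341), and of 50 rRNA genes 3 rose and 4 fell. Antisense genes rose in 25.5% of 1144, and since strandedness is not stated their reads cannot be told apart from those of the opposite gene.

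The 3 Y-linked genes with a mean of at least 5 RPKM all rose, and they were named after the values were seen. *Eif2s3y*, a translation factor subunit, went from 2.03, 1.68, 6.08 and 4.60 RPKM in R7 to 12.3, 7.30, 22.9 and 25.2 RPKM in R6 of mice 178, 648, 544 and 550 (2.23 ± 0.29; limma adjusted p = 0.00052), without overlap. *Gm47283* and the pseudogene *Gm20901* belong to repeated families and differed by 2.12 ± 0.39 and 3.83 ± 0.45.

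Cytoplasmic ribosomal protein genes had 20 falls and 3 rises among 83 (median -0.48). Beside them, 1808 of the 8663 genes with a mean of at least 5 RPKM fell, a similar share. Without WT 648 the ribosomal falls were 43, without WT 178 7, without KO 544 6 and without KO 550 3. Of 37 mitochondrially encoded genes 5 fell (13.5%, near the 10.8% of all genes tested) and 1 rose. There were 8 falls without WT 178 and none without KO 544 or without KO 550. Chromosome 14 had the highest autosomal median, 0.41, with 27.9% of 906 genes rising. Its median was -0.08 after quantile normalization. Among its 289 genes with a mean of at least 5 RPKM it was -0.28, against -0.26 over all such genes.

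The core TGACG of the cyclic AMP response element stood in the promoters of 23.0% of all genes in the table and 31.2% of the tested ones. It stood in those of 7 of 13 acrosome and fusion, 5 of 13 piRNA, 2 of 10 recombination, 2 of 10 round spermatid and 0 of 8 elongating spermatid genes.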
